A study of Mus musculus with 28 samples.

Results

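The cytosolic Hsp90 chaperone machinery was followed in the liver of mice fed alcohol with or without a polyphenol. Of the 8 genes listed for it (Hsp90aa1, Hsp90ab1, Stip1, Fkbp4, Ahsa1, Chordc1, Ptges3 and Cdc37), 6 had at least 1 probe set that names them alone in the array annotation, with 14 such probe sets among the 45037 analysed. Hsp90ab1 was not analysed here, and Ptges3 was read only by 2 probe sets that also name the pseudogene Ptges3-ps, which are given below but left out of every count. A gene was represented by its lead probe set, the one with the highest mean over all 28 arrays. Each array held the liver RNA of 1 female C3H/HeN mouse, either wild-type (16 arrays) or deficient in CAR (12 arrays), the nuclear receptor Nr1i3 that senses xenobiotics. The mice were 5 weeks old at the start and, after 1 week of acclimation, received Lieber's liquid diet for 1 week without limit and then at 12 g per day for 4 weeks. There were 4 diets in each genotype: a control diet with water, the ethanol diet (EtOH), ethanol plus ellagic acid (EA) and ethanol plus trans-resveratrol (RSV), each polyphenol at about 50 mg per kg body weight per day. The control diet also held more maltose and dextrin than any diet with ethanol. Ethanol and carbohydrate cannot be told apart in a difference from control. The wild-type groups had 4 mice per diet and the CAR-deficient groups 3, and all EA and RSV mice therefore also received ethanol.

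Hsp90 is an ATP-driven chaperone that keeps steroid receptors, kinases and other client proteins in a form able to be activated, and cochaperones steer the client through its cycle. Stip1 (HOP) bridges Hsp70 to Hsp90, Cdc37 loads kinases, Ahsa1 stimulates the ATPase, Ptges3 holds the closed state, and Fkbp4 is a peptidyl-prolyl isomerase of the late steroid receptor complex. Hsp90aa1 encodes the stress-inducible isoform, Hsp90ab1 the constitutive one, and the heat shock factor HSF1 can drive several of these genes together when proteins unfold. In hepatocytes the complex also has a tie to the deleted gene, since CAR is kept in the cytoplasm in a complex with Hsp90 and the cochaperone Dnajc7.

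HSF1 binds arrays of the triplet GAA and its complement TTC, so promoters were searched for both 8-letter pairings of them. RefSeq promoter windows (build GRCm38.p6, 250 bases before to 50 after the gene start) were at hand for 6 of the 8 listed genes: Stip1, Fkbp4, Ahsa1, Chordc1, Ptges3 and Cdc37. Either GAANNTTC or TTCNNGAA, each its own reverse complement and so the same on both strands, stood in 3 of these 6 windows and in 15.1% of all 32851 windows. Taken apart, GAANNTTC was in the windows of Chordc1 and Fkbp4 and in 7.86% of all, and TTCNNGAA in those of Cdc37 and Chordc1 and in 8.52% of all. Extended by NN and a further triplet of the alternation, so that both pairings overlap, the forms were found in the Chordc1 window alone among the members, and in 0.31% (starting with GAA) and 0.32% (starting with TTC) of all windows. The stretches that hold the matches are shown to let the Chordc1 run be compared with the single pairings of the other genes, with matched triplets in capitals and all in the direction of the gene.
Chordc1 (chr9:18292217-18292286, plus strand, bases -50 to 20 from the gene start): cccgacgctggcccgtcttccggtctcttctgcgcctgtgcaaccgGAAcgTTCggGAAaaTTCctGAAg
Fkbp4 (chr6:128438777-128438836, minus strand, bases -180 to -121): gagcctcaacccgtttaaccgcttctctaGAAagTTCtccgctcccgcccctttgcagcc
Cdc37 (chr9:21150075-21150134, minus strand, bases -200 to -141): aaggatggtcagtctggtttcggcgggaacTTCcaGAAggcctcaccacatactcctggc
In Chordc1 the alternating triplets ran across the gene start, and a further TTCNNGAA, not printed, began 34 bases downstream of it. A letter match describes the window and does not show that a factor binds there.

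The values below are the deposited log2 values of a summary method called Distribution Free Weighting (DFW), and every difference is a difference of DFW values rather than a calibrated log2 fold change. DFW was run apart for the 2 genotypes, so levels were not compared between them. The method also pressed many probe sets nearly flat. A probe set whose SD over the arrays of a genotype was at most 0.01 is called compressed here, which held for 78.8% of genes in wild-type and 71.5% in CAR-deficient mice. Of the 14 member probe sets 7 were compressed in both genotypes, among them both of Cdc37, and the other 7 belonged to Hsp90aa1 (3 probe sets), Stip1, Fkbp4, Ahsa1 and Chordc1. A difference is called where the limma test, adjusted by Benjamini-Hochberg over all probe sets, gave at most 0.05. The mean correlation of an array with the others of its genotype ran from 0.99186 to 0.99606 in wild-type mice. In CAR-deficient mice it ran from 0.98258 to 0.99324, and EtOH array 1 and RSV array 3 stood apart there. In the wild type control array 1 had the lowest correlation and a Gapdh 3′ minus 5′ difference of 0.757, against at most 0.536 on the other arrays. The hepatocyte markers Apoa1 and Fgb had DFW values of 14.2 to 14.3 and 13.4 to 13.8 on the wild-type arrays, while all 5 neutrophil and lymphocyte markers were compressed there. Of all 7 hepatocyte markers, 4 of them uncompressed, 1 was called lower in EtOH than in control wild-type livers, against 4.05% of all genes. Lower than control were 2 in EA, against 9.67%, and 1 in RSV, against 12.6%, and none was called higher. The Nr1i3 probe set read 8.96 to 10.1 on wild-type and 8.55 to 9.49 on CAR-deficient arrays. Whether it lies in the deleted part is not known here, so it does not check the genotype labels.

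In wild-type mice 5 genes of the Hsp90 machinery were higher with the ethanol diet. The stress-inducible Hsp90aa1, the Hsp70-Hsp90 adaptor Stip1, the ATPase activator Ahsa1, the isomerase Fkbp4 and the CHORD-domain Hsp90 partner Chordc1 were all called higher in EtOH than in control livers. All 4 EtOH arrays lay above all 4 control arrays for each of these 5 genes, as they did for 7.54% of all genes and 9.8% of uncompressed ones. With the compressed Cdc37 included, 6 of 6 member genes were called higher, against 2.99% of all 18193 genes, and among uncompressed genes 5 of 5, against 6.69%. The members were chosen with earlier results of these data known. The counts of members here and below are therefore descriptions and no test of the set. The median difference was 0.417 over the 5 uncompressed members and -0.0371 over all uncompressed genes. After quantile normalization all 6 members were called higher too, but so were 6274 of all genes, with 1153 lower, against 544 higher and 737 lower in the values as deposited.

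Hsp90aa1 (1438902_a_at) had DFW values of 11.25, 10.93, 11.07 and 11.09 in the control mice and 11.57, 11.87, 11.51 and 11.57 in the EtOH mice. The lowest EtOH value was thus above the highest control value, which was that of control mouse 1. The difference of means was 0.54 ± 0.129 (SE, n = 4 and 4, limma adjusted p = 0.031). The 2 further uncompressed probe sets of the gene gave differences of similar size, 0.58 ± 0.235 for 1437497_a_at and 0.63 ± 0.255 for 1426645_at, but neither was called (limma adjusted p = 0.18 for each). On both of them control mouse 1 was far above the other controls, at 10.47 against 9.82 to 9.94 and at 10.02 against 9.33 to 9.43, and its values overlapped those of the EtOH mice. The compressed 1441827_x_at was called higher by 1.49e-03 (limma adjusted p = 0.016), with no size that can be read as a change in RNA. The call of the lead probe set was lost when any 1 of 6 arrays was left out, EtOH 1, 3 or 5 or control 2, 3 or 4, with adjusted p from 0.051 to 0.082, and the difference stayed between 0.46 and 0.60.

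Stip1 (1415909_at), which hands clients from Hsp70 to Hsp90, had values of 8.06, 8.13, 8.11 and 8.17 in control and 8.44, 8.66, 8.50 and 8.53 in EtOH livers. The 2 groups were well apart and each was tight. Stip1 had the lowest adjusted p of the members, with a difference of 0.42 ± 0.0652 (SE, n = 4 and 4, limma adjusted p = 0.0050). Ahsa1 (1424147_at) was at 9.41, 9.31, 9.43 and 9.53 in control and at 9.72, 9.98, 9.69 and 9.72 in EtOH livers. EtOH mouse 3 was the highest of the group and the other 3 were nearly equal. The difference was 0.36 ± 0.0649 (limma adjusted p = 0.0094). Fkbp4 (1416362_a_at) read 8.80, 8.92, 8.95 and 8.97 in control and 9.24, 9.15, 9.21 and 9.21 in EtOH mice, so that here EtOH mouse 3 was the lowest of its group. The difference, 0.29 ± 0.0568, was the smallest of the uncompressed members (limma adjusted p = 0.014). Stip1, Ahsa1 and Fkbp4 kept their call whichever of the 16 arrays was left out.

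Chordc1 (1460645_at), a CHORD-domain protein that binds Hsp90, gave 8.90, 8.88, 8.9998 and 9.09 in control and 9.45, 9.88, 9.27 and 9.39 in EtOH mice. The spread within the EtOH group was wider than for Stip1 or Fkbp4, with mouse 3 far above the rest, and the groups did not overlap. The difference was 0.53 ± 0.109 (limma adjusted p = 0.017), and the call was lost without control mouse 2, where the adjusted p was just above the threshold (0.05 when rounded). Cdc37 (1416819_at), the kinase-loading cochaperone, stood at 9.015 on every wild-type array, and its called difference of 2.19e-04 (limma adjusted p = 0.032) is one of a compressed probe set, with no size that can be read as a change in RNA. The Cdc37 call was lost without EtOH 1, 4 or 5 or control 1, 2 or 3 (adjusted p 0.055 to 0.078). The probe sets shared by Ptges3 and its pseudogene did not follow the others. The brighter one, 1460221_at, gave 11.49, 11.18, 11.30 and 11.18 in control and 11.27, 11.48, 11.39 and 11.004 in EtOH livers. Their ranges overlapped fully. The difference was -0.0025 ± 0.0909 (95% interval -0.20 to 0.19, limma adjusted p = 0.99), and that of the second, 1417998_at, was 0.01 ± 0.0556 (95% interval -0.11 to 0.13).

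**Figure D1:**
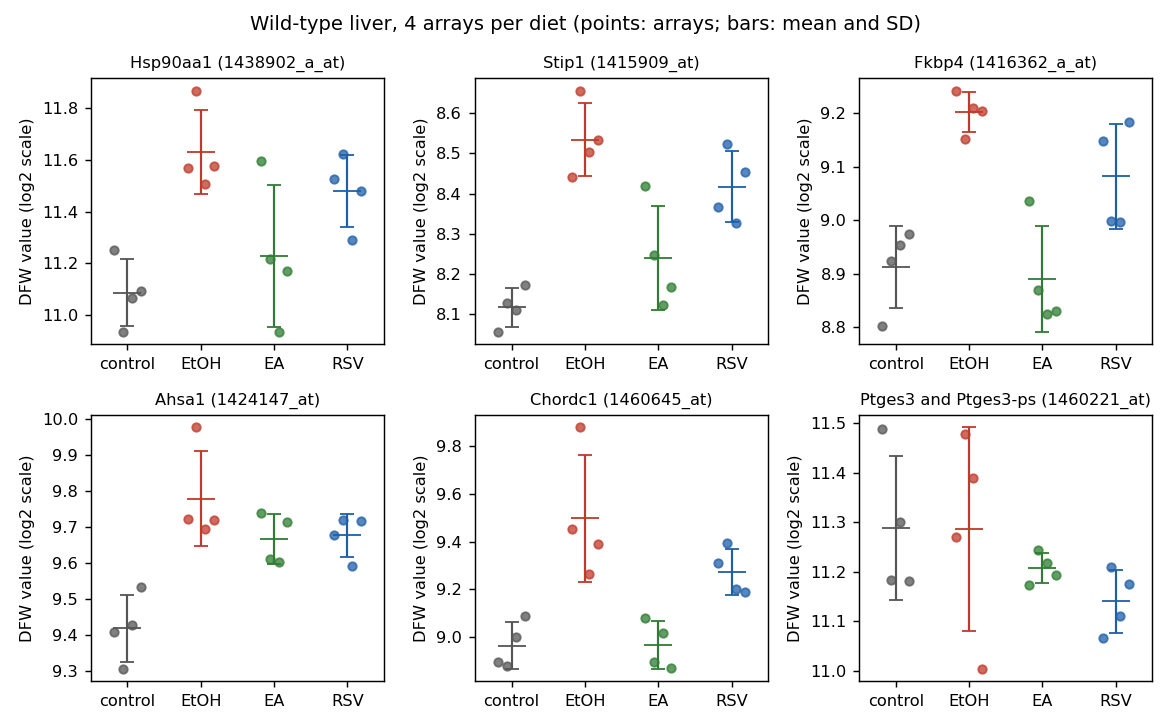
DFW values (log2 scale, vertical axis, a separate range in each panel) of 5 member genes and of the probe set shared by Ptges3 and Ptges3-ps on the 16 wild-type arrays, by diet; points are arrays and bars the mean and SD of 4. For the 5 genes the EtOH points lie above all control points, the RSV points lie between or beside them and the EA points mostly return toward control, while the Ptges3 panel has overlapping groups.

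The number of calls depended on which arrays entered the fit. With the 2 compared groups fitted alone, 2 of 6 members were called, Stip1 and Fkbp4, against 0.808% of all genes, and adjusted p was 0.064 for Hsp90aa1, 0.085 for Ahsa1 and 0.12 for Chordc1. Without control mouse 2 the count was 3. These tests measure the spread between 4 mice per diet, each on 1 array.

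Part of the machinery fell when EA was added to the ethanol diet of wild-type mice. Stip1, Fkbp4 and Chordc1 were called lower in EA than in EtOH livers, 3 of 6 members against 1.64% of all genes, and 3 of 5 uncompressed members against 5.6% of uncompressed genes. Hsp90aa1 and Ahsa1 were not called. This comparison shares the EtOH arrays with the one above, so a high EtOH mean enters both with opposite sign.

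Chordc1 was at 9.08, 8.90, 9.02 and 8.87 in the EA mice, all below the lowest EtOH value of 9.27. The difference from EtOH was -0.53 ± 0.109 (limma adjusted p = 0.029), and the EA mean of 8.97 stood beside a control mean of 8.97. Fkbp4, with EA values of 9.04, 8.87, 8.83 and 8.83, also lay wholly below the EtOH mice, by -0.31 ± 0.0568 (limma adjusted p = 0.016). Stip1 had EA values of 8.42, 8.25, 8.12 and 8.17. Its highest, EA mouse 1, came close to the lowest EtOH value of 8.44 without reaching it. The Stip1 difference was -0.29 ± 0.0652 (limma adjusted p = 0.038). How many of all genes had EA and EtOH values separated in this way was not counted.

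For Hsp90aa1 the EA values were 11.60, 11.21, 10.93 and 11.17, with EA mouse 1 inside the EtOH range and the other 3 below it. The difference was -0.40 ± 0.129 (limma adjusted p = 0.14), and the 2 other uncompressed probe sets gave -0.67 and -0.71 (adjusted p = 0.18 and 0.19). Ahsa1 in EA mice was at 9.74, 9.61, 9.60 and 9.71, overlapping the EtOH mice, with a difference of -0.11 (95% interval -0.25 to 0.03, adjusted p = 0.47). The shared Ptges3 probe sets differed by -0.08 and -0.02, neither of them called. All 3 calls were lost when the EtOH and EA groups were fitted alone (adjusted p = 0.16 for Stip1, 0.080 for Fkbp4 and 0.16 for Chordc1). The count was 0 without EA 3, EA 4 or EtOH 1, and 1 without EA 2. Stip1 alone was also lost without EtOH 3, 4 or 5 or control 2, 3 or 4 (adjusted p 0.052 to 0.074).

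With RSV added to ethanol no member was called against EtOH. The count was 0 of 6 by limma, against 0.555% of all genes called in either direction, and 0 at an unadjusted p under 0.05, against 17.4%. It was also 0 by the rank product test at a false discovery rate (FDR) of 0.025, where Chordc1 came nearest with an FDR of 0.046. Hsp90aa1 in RSV mice was at 11.53, 11.62, 11.29 and 11.48, Stip1 at 8.37, 8.52, 8.33 and 8.45, and Fkbp4 at 9.15, 8.9986, 8.9978 and 9.18. Ahsa1 was at 9.68, 9.72, 9.59 and 9.72 and Chordc1 at 9.31, 9.39, 9.20 and 9.19. The 5 uncompressed members all lay a little below EtOH on average, and every RSV group overlapped its EtOH group. Their differences were -0.15 for Hsp90aa1 (95% interval -0.43 to 0.13), -0.12 for Stip1 (-0.26 to 0.03), -0.12 for Fkbp4 (-0.24 to 0.0025), -0.10 for Ahsa1 (-0.24 to 0.04) and -0.22 for Chordc1 (-0.46 to 0.01). The intervals allow falls down to their lower limits, so absence of an RSV effect is not shown. The EA minus EtOH differences of Stip1, Fkbp4 and Chordc1 lay below those limits, while those of Hsp90aa1 and Ahsa1 lay within the intervals.

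Set directly against each other, EA and RSV had no member called by limma, against 0.0165% of all genes. The EA minus RSV differences were -0.31 for Chordc1 (95% interval -0.54 to -0.07), -0.25 for Hsp90aa1 (-0.53 to 0.03), -0.19 for Fkbp4 (-0.31 to -0.07), -0.18 for Stip1 (-0.32 to -0.04) and -0.01 for Ahsa1 (-0.15 to 0.13). Chordc1 values did not overlap, with the highest EA value at 9.08 and the lowest RSV value at 9.19. For this pair of diets the share of all genes without overlap was not counted. At an unadjusted p under 0.05 there were 3 members (Chordc1, Fkbp4 and Stip1), against 10.2% of all genes. The rank product test called 3 lower in EA (Chordc1, Hsp90aa1 and Fkbp4), against 1.39% of all genes, and gave Stip1 an FDR of 0.027. Ellagic acid is a fused polyphenolic dilactone and resveratrol a hydroxylated stilbene, and both were given at about the same intake.

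**Figure D2:**
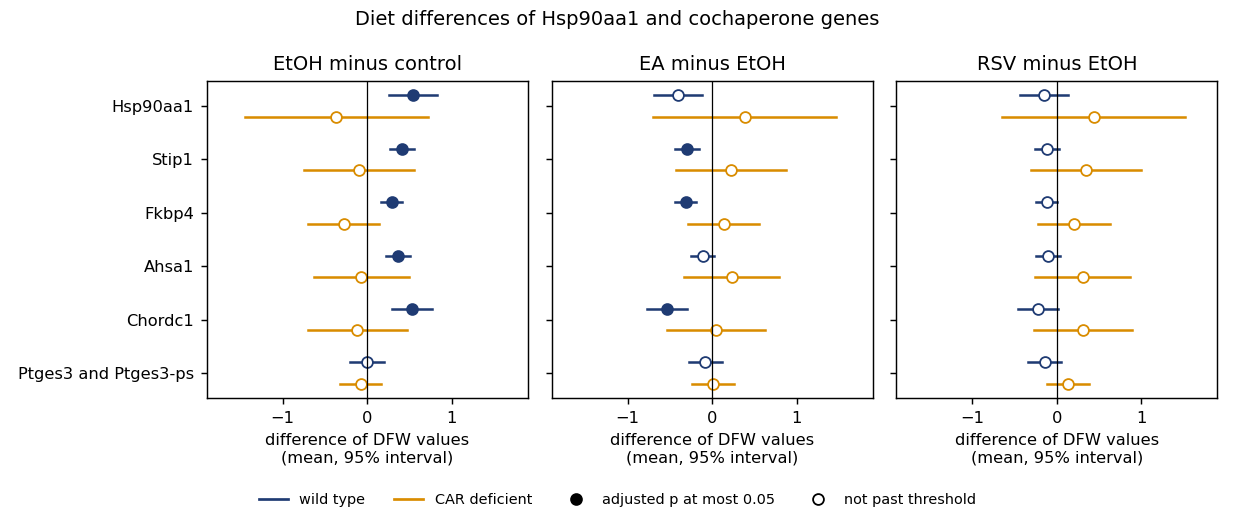
Differences of mean DFW values (horizontal axis, log2 scale) with 95% intervals for EtOH minus control, EA minus EtOH and RSV minus EtOH, in wild-type (blue, 4 arrays per diet) and CAR-deficient mice (orange, 3 arrays per diet); filled points had a limma adjusted p of at most 0.05. Filled points occur only in the wild-type rows, 5 for EtOH minus control and 3 for EA minus EtOH, and the CAR-deficient intervals are wider.

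Against the control diet, some members were higher in RSV livers. There 3 of 6 members were called higher than control, against 11.2% of all genes: Stip1 by 0.30 ± 0.0652 (limma adjusted p = 0.0083), Ahsa1 by 0.26 ± 0.0649 (0.016) and Hsp90aa1 by 0.39 ± 0.129 (0.05 when rounded). The further uncompressed probe sets of Hsp90aa1 overlapped control and were not called. They gave 0.23 for 1437497_a_at and 0.25 for 1426645_at (limma adjusted p = 0.52 and 0.53). Its compressed 1441827_x_at was called higher by 1.43e-03 (limma adjusted p = 0.0074). Chordc1 (0.31, adjusted p = 0.066) and Fkbp4 (0.17, adjusted p = 0.055) were just outside the threshold, although their RSV values all lay above the control values, as held for 12.7% of all genes. The count was 5 in the fit on uncompressed probe sets (against 17.6% of genes), 5 on probe sets above the median level (15.0%) and 5 by rank product (4.08%). It was 6 after quantile normalization, where 47.2% of all genes were called higher. The Hsp90aa1 call sat at the threshold and was lost without any 1 of 11 of the 16 arrays (control 2 to 4, EtOH 1, 4 or 5, EA 2 or 4, RSV 1, 2 or 4), with adjusted p up to 0.13.

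In EA livers 1 of 6 was called higher than control, Ahsa1 by 0.25 ± 0.0649 (limma adjusted p = 0.024), against 8.29% of all genes. All 4 EA values of Ahsa1, from 9.60 up, were above the highest control value of 9.53, and the share of all genes so separated was not counted. Same-numbered EA and control mice deviated together over all probe sets, and with the mouse number as a block the adjusted p of Ahsa1 was 0.056, which leaves 0 called. It was also lost without EA 1, EA 4, control 1 or control 2 (adjusted p 0.051 to 0.065). The remaining uncompressed members differed from control by 0.14 (Hsp90aa1, 95% interval -0.14 to 0.42), 0.12 (Stip1, -0.02 to 0.27), -0.02 (Fkbp4, -0.15 to 0.10) and 0.0018 (Chordc1, -0.24 to 0.24). The further uncompressed probe sets of Hsp90aa1 had the opposite sign, -0.09 for 1437497_a_at and -0.08 for 1426645_at.

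Ordered by mean, EtOH was the highest diet for all 5 uncompressed genes in the wild type and RSV the second. Control was the lowest for Hsp90aa1, Stip1, Ahsa1 and Chordc1, and EA for Fkbp4, all by lead probe set. On the further uncompressed probe sets of Hsp90aa1 the EA mean lay below control. It was 9.94 against 10.02 on 1437497_a_at and 9.45 against 9.53 on 1426645_at. Of the neighbouring diets in these orders, only control and EA for Ahsa1 differed by the limma test. EtOH and RSV, neighbours for all 5 genes, were not separated by the test, nor were RSV and EA for the other 4 genes or RSV and control for Fkbp4.

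The uncompressed members were correlated in wild-type mice, Fkbp4 the least once diet means were removed. Over the 16 wild-type arrays the 10 pairs among the 5 uncompressed genes had Pearson's r from 0.57 to 0.92 (median 0.82), and after diet means were removed from 0.02 to 0.80 (median 0.57). The lowest of the latter were the pairs of Fkbp4, with Chordc1 (0.02), Ahsa1 (0.17), Hsp90aa1 (0.27) and Stip1 (0.40). The arrays share diet, processing and the DFW step, so these are descriptions. EtOH mouse 3 was the highest of all 16 for Hsp90aa1, Stip1, Ahsa1 and Chordc1, and ranked 5 for Fkbp4. The shared Ptges3 probe sets did not follow the members in the wild type (median r 0.06). Ranked by r with the Hsp90aa1 lead probe set over the 16 arrays, the genes most alike among 3856 were Stip1 (0.92), the Hsp110 nucleotide exchange factor Hsph1 (0.92), the constitutive Hsp70 Hspa8 (0.86), Etfbkmt (0.85), a lysine methyltransferase of the mitochondrial electron transfer flavoprotein, and Chordc1 (0.83). Ahsa1 came sixth (0.82) and Fkbp4 20th (0.74). With diet means removed, r with Hsp90aa1 was 0.77 for Stip1, 0.78 for Hsph1, 0.65 for Hspa8, 0.73 for Etfbkmt and 0.56 for Chordc1. It was 0.70 for Ahsa1 and 0.27 for Fkbp4. Over the 12 CAR-deficient arrays, r with Hsp90aa1 was 0.98 for Hsph1, 0.95 for Stip1, 0.94 for Hspa8, 0.89 for Chordc1 and 0.41 for Etfbkmt.

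Genes that HSF1 is known to induce did not move as one group. Of 14 measured heat shock genes 4 were called higher and 0 lower in EtOH than in control livers of wild-type mice, against 2.99% and 4.05% of all genes (median difference 0.0655, against 3.42e-05 over all genes). They were Hspb1 (1.14 ± 0.191, limma adjusted p = 0.0065) and Hspb8 (0.78 ± 0.111, 0.0031), both small heat shock proteins, Hsph1 (0.81 ± 0.194, 0.032) and Hspa8 (0.29 ± 0.0482, 0.0067). The Hsp40 gene Dnajb1 (0.01), the Hsp70 partner Bag3 (-0.14) and the inducible Hsp70 gene Hspa1a (-0.26, adjusted p = 0.091) were not called. Hspa1a has a near-identical copy, Hspa1b, and the probe sets may cross-hybridise. Its own probe set gave 0.42 (adjusted p = 0.52).

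Between the ethanol and polyphenol diets the called heat shock genes were others. In EA against EtOH 0 were called higher and 4 lower, against 1.58% and 1.64% of all genes: Dnajb1 (-0.71 ± 0.0892, limma adjusted p = 0.0048), Bag3 (-0.45, 0.035), Hspa1a (-0.42, 0.026) and Hspa4 (-0.23, 0.041), of the Hsp110 family. In RSV against EtOH Dnajb1 (-0.60, 0.026), Bag3 (-0.52, 0.049) and Hspa4 (-0.29, 0.048) were called lower, against 0.313% of all genes. Dnajb1 showed this plainly, with 8.86, 8.62, 8.95 and 8.99 in control, 9.003, 8.998, 8.77 and 8.71 in EtOH, 8.12, 8.09, 8.34 and 8.11 in EA and 8.25, 8.33, 8.21 and 8.28 in RSV mice. The 2 polyphenol groups were below both other groups without overlap, and the share of all genes so separated was not counted. Unlike Dnajb1, no lead probe set of the Hsp90 members was called lower than control in either polyphenol group. A further, compressed probe set of Fkbp4, 1416363_at, was called lower in EA than in control, by -4.32e-04 (limma adjusted p = 0.02). Against control 3 heat shock genes were higher and 4 lower in EA, where 8.29% of all genes were higher and 9.67% lower. In RSV 5 were higher and 4 lower, against 11.2% and 12.6%.

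**Figure D3:**
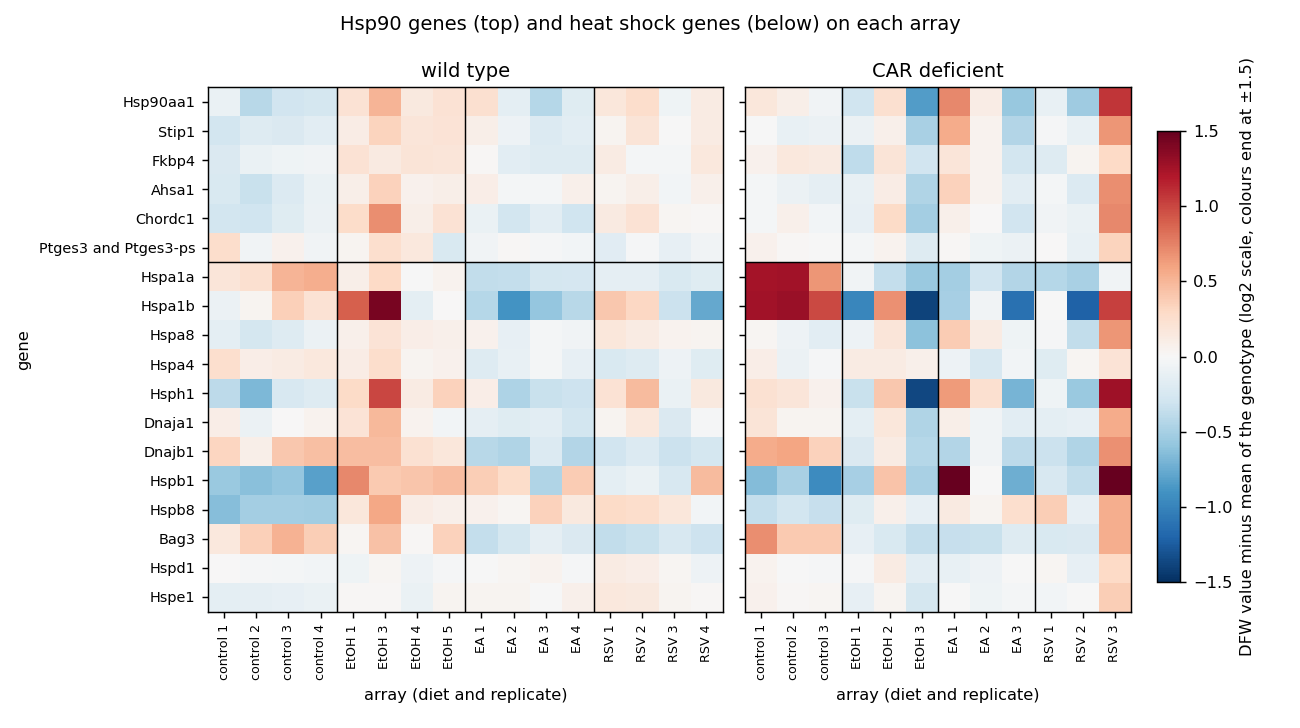
Deviation of each array's DFW value from the mean of its genotype (colour, log2 scale, ending at 1.5 either way) for the members and the shared Ptges3 probe set (above the line) and 12 uncompressed heat shock genes (below), with arrays in columns grouped by diet. In the wild type the EtOH columns are red for the 5 members, and Dnajb1 and Bag3 are blue in EA and RSV; in CAR-deficient mice RSV array 3 is the reddest column for the members and Hspa1a is red in the controls only.

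Among 22 measured relatives and further cochaperones of Hsp90, 1 was called higher and 1 lower with ethanol, against 2.99% and 4.05% of all genes. In EtOH against control Tomm70a, a mitochondrial import receptor that docks Hsp90, was lower (-0.27 ± 0.0712, limma adjusted p = 0.048), and St13, an Hsp70 cochaperone, was called higher by a compressed 1.71e-04. The ER paralogue Hsp90b1 gave 0.21 (adjusted p = 0.056), and Dnajc7, the CAR-retaining cochaperone, was compressed in the wild type. With EA against EtOH the glucocorticoid receptor cochaperone Fkbp5 (0.68 ± 0.161, adjusted p = 0.047) and Fnip2 (0.72, 0.0057), an inhibitor of the Hsp90 ATPase, were higher, and Cacybp (-0.36 ± 0.0683, 0.018) was lower, against 1.58% and 1.64% of all genes. With RSV against EtOH Fnip2 alone was called (0.60, 0.037), higher as 0.242% of all genes were. Fkbp5 means were 8.07 in control, 8.50 in EtOH, 9.19 in EA and 8.89 in RSV livers, the reverse order of EA and EtOH from that of its relative Fkbp4. Against control 3 relatives were higher and 2 lower in EA, where 8.29% of all genes were higher and 9.67% lower. In RSV 6 were higher and 4 lower, against 11.2% and 12.6%, so that the lower ones were close to the share of all genes. Of the higher ones Hsp90b1 (0.29, adjusted p = 0.0057), Fkbp5 (0.81, 0.0052), Fnip1 (0.63, 0.012) and Fnip2 (0.40, 0.016) were uncompressed.

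Client genes of Hsp90 were mostly not called. Of 14 measured, 0 were higher and 1 lower in EtOH than in control livers, the kinase Jak1 (-0.19 ± 0.0454, limma adjusted p = 0.034), against 4.05% of all genes lower. In EA against EtOH 2 were higher, the glucocorticoid receptor Nr3c1 (0.32 ± 0.0689, adjusted p = 0.033) and CAR itself, Nr1i3 (0.64 ± 0.149, 0.045), against 1.58% of all genes. In RSV against EtOH 0 were called by limma, with 2 at an unadjusted p under 0.05, against 17.4% of all genes. Compared with control, 2 were higher and 1 lower in EA, against 8.29% and 9.67% of all genes. In RSV 1 was higher and 3 were lower, against 11.2% and 12.6%. An unadjusted p under 0.05 against control was found for 10 of 14 in EA, as for 6120 of all 18193 genes. In RSV it was found for 8 of 14, as for 7175 of all genes.

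Markers of other liver cells shifted with the same diets. Of 8 Kupffer cell markers 7 were called lower in EtOH than in control livers of wild-type mice, against 4.05% of all genes, among them Adgre1 (-0.44 ± 0.0799, limma adjusted p = 0.010) and C1qa (-0.29 ± 0.0534, 0.010). The summed level of the 8 ran from 68.9 to 69.9 in control, 67.1 to 68.2 in EtOH, 67.3 to 67.7 in EA and 67.0 to 68.1 in RSV mice. Timd4 and Marco were compressed, and no marker was at 0. In these bulk samples fewer cells of a type and less RNA per cell cannot be told apart. None of the Kupffer markers was called by limma in EA or RSV against EtOH, nor had any an unadjusted p under 0.05 there. In both groups 7 of 8 were called lower than control, against 9.67% of all genes in EA and 12.6% in RSV.

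Sinusoidal endothelial markers moved with EA. Of 6, only Stab2, a scavenger receptor, was called in EtOH against control (-0.45 ± 0.0947, limma adjusted p = 0.020). It was lower, as 4.05% of all genes were there. The Fc receptor Fcgr2b was called higher in EA than in EtOH (0.23 ± 0.054, limma adjusted p = 0.048), 1 of 6 against 1.58% of all genes. There 5 of 6 had an unadjusted p under 0.05, as had 3353 of all 18193 genes. Against control 3 of 6 were called higher in EA (Lyve1, Clec4g and the compressed Oit3), against 8.29% of all genes. In RSV 0 were called against EtOH, and 1 was lower than control, where 12.6% of all genes were lower. The summed level of the 6 ran from 53.9 to 55.1 in control, 54.2 to 54.4 in EtOH, 55.0 to 55.6 in EA and 54.4 to 54.7 in RSV mice, so that the EA mice lay above the EtOH mice without overlap. Of 5 stellate cell markers 0 were called in EtOH against control or in either polyphenol group against EtOH. Higher than control were 2 in EA (Dcn and the compressed Des), against 8.29% of all genes. In RSV there were 3 (Lrat, Dcn and Des), against 11.2%. Their summed level ran from 42.4 to 42.7 in control, 42.4 to 43.0 in EtOH, 42.8 to 43.1 in EA and 42.8 to 43.2 in RSV mice. All 4 cholangiocyte markers were compressed. The part of any of these cell types in the Hsp90 differences was not tested.

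In CAR-deficient mice no member was called in any of the 6 diet comparisons, by limma or by rank product, and none had an unadjusted p under 0.05, which 13.3% of all genes had between EtOH and control. Of all genes 0.434% were called in either direction between EtOH and control, 0.242% between EA and control and 0.0715% between RSV and control, and 0.0% in each of the other 3 comparisons. Control mice were close together and the ethanol-fed groups wide. Hsp90aa1 was at 12.06, 11.98 and 11.83 in control, 11.59, 12.12 and 11.05 in EtOH, 12.60, 12.00 and 11.31 in EA and 11.77, 11.35 and 12.95 in RSV livers. The SD was 0.114 in control and 0.536, 0.646 and 0.831 in the groups with ethanol.

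The same pattern was seen for the cochaperones. Stip1 was at 8.77, 8.66 and 8.68 in control, 8.68, 8.85 and 8.29 in EtOH, 9.32, 8.83 and 8.33 in EA and 8.76, 8.67 and 9.43 in RSV mice. Chordc1 read 10.02, 10.13 and 10.02 in control, 9.93, 10.34 and 9.55 in EtOH, 10.13, 10.06 and 9.77 in EA and 10.00, 9.95 and 10.77 in RSV mice. RSV mouse 3 was the highest of the 12 arrays for all 5 uncompressed members, and EtOH mouse 3 the lowest for Hsp90aa1, Stip1, Ahsa1 and Chordc1. Ahsa1 had its extremes in the same mice, with 10.32, 10.26 and 10.21 in control, 10.24, 10.46 and 9.89 in EtOH, 10.69, 10.40 and 10.20 in EA and 10.32, 10.14 and 11.05 in RSV livers. Fkbp4 was at 9.81, 9.90 and 9.88 in control and 9.37, 9.94 and 9.46 in EtOH livers. Its EA values were 9.92, 9.79 and 9.47, and those of RSV mice 9.55, 9.78 and 10.04, so the groups overlapped for this gene too.

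EtOH minus control was -0.37 for Hsp90aa1 (95% interval -1.45 to 0.72), -0.10 for Stip1 (-0.75 to 0.55), -0.28 for Fkbp4 (-0.70 to 0.15), -0.07 for Ahsa1 (-0.63 to 0.49) and -0.12 for Chordc1 (-0.70 to 0.47). The wild-type differences of Hsp90aa1, Stip1 and Ahsa1 lay within these intervals, and those of Fkbp4 and Chordc1 above them. This is no test between the genotypes, which had separate DFW runs, and the interaction test given below called neither Fkbp4 nor Chordc1. EA minus EtOH ran from 0.05 (Chordc1) to 0.38 (Hsp90aa1), and RSV minus EtOH from 0.20 (Fkbp4) to 0.44 (Hsp90aa1), none called. Leaving out the 2 arrays that stood apart, a choice made after the data were seen, also gave 0 called in all 6 comparisons.

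**Figure D4:**
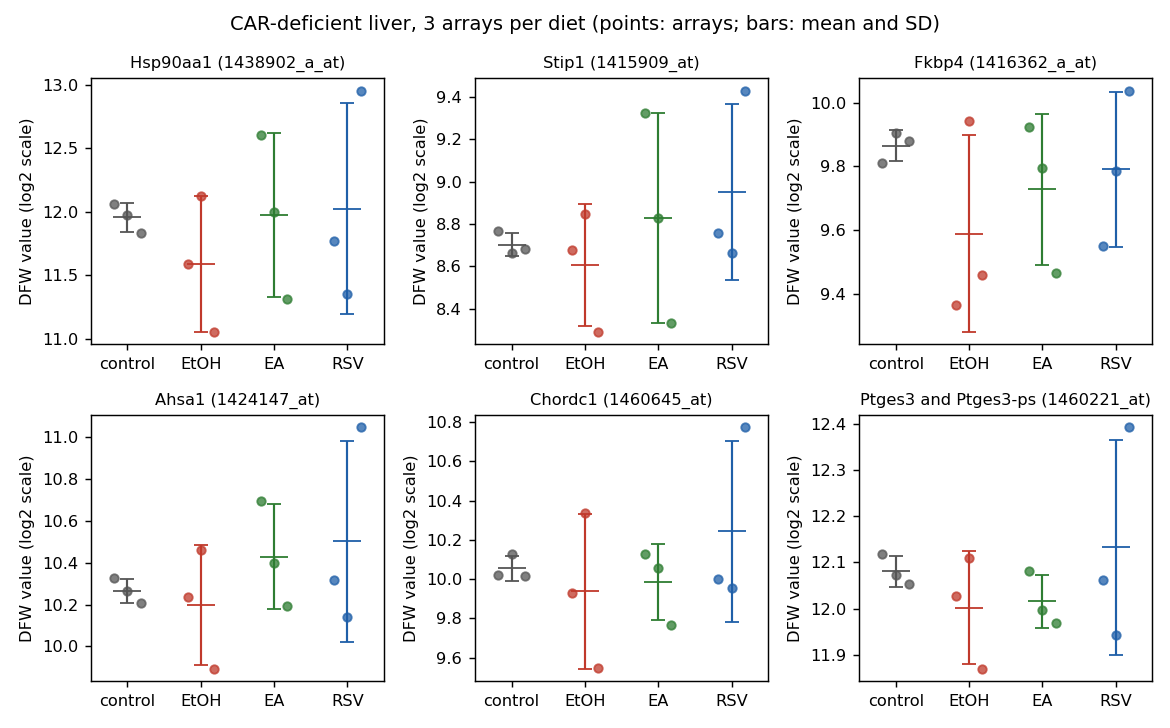
DFW values (log2 scale, vertical axis, a separate range in each panel) of the same probe sets on the 12 CAR-deficient arrays, by diet; points are arrays in the order of mouse number and bars the mean and SD of 3. The control points are close together, and RSV mouse 3 is the highest point of every panel.

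Across the CAR-deficient arrays the 10 pairs of members had r from 0.66 to 0.95 (median 0.87), and from 0.73 to 0.98 (median 0.89) with diet means removed. The shared Ptges3 probe sets followed the members here (median r 0.86), and 1460221_at was at 12.06, 11.94 and 12.39 in the RSV mice, with mouse 3 the highest again. Among the heat shock genes only Hspa1a was called, lower in EtOH than in control (-1.38 ± 0.199, limma adjusted p = 0.041) and in EA than in control (-1.47, 0.043). Its values were 8.08, 8.09 and 7.49 in control and 6.77, 6.48 and 6.27 in EtOH mice. Of the Kupffer cell markers 0 were called in EtOH against control and 6 had an unadjusted p under 0.05, against 13.3% of all genes, all in the limma fit, where the median difference of the 8 was -0.341.

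Whether the diet differences depended on the genotype was examined by an interaction term fitted to the 28 arrays together. No member passed for EtOH minus control, where 2.46% of all genes were called in either direction. The wild-type difference exceeded the CAR-deficient one by 0.57 ± 0.170 for Fkbp4 (limma adjusted p = 0.089), 0.65 ± 0.253 for Chordc1 (0.20), 0.91 ± 0.430 for Hsp90aa1 (0.30), 0.51 ± 0.253 for Stip1 (0.33) and 0.43 ± 0.222 for Ahsa1 (0.35). Of the 6 members 3 had an unadjusted p under 0.05, against 16.9% of all genes. After quantile normalization 2 were called, against 28.6% of all genes. Without CAR-deficient EtOH mouse 2 the count was 1. For EA minus EtOH 0 were called by limma, against 0.176% of all genes, with 2 at an unadjusted p under 0.05, against 8.65%. For RSV minus EtOH 0 were called, against 0.0%, with 1 at an unadjusted p under 0.05, against 7.16%. Differences between EtOH and control are therefore called in one genotype and not in the other, without a called difference between the genotypes. Genotype also goes with a separate run of DFW, and the 2 cannot be told apart in this test.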

How the data were processed

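Liver RNA of 28 mice was hybridised to Affymetrix Mouse Genome arrays, 1 mouse per array. The deposited log2 values were made by the authors with the DFW method, in separate runs for wild-type and CAR-deficient mice. The log2 scale is not calibrated, and Alb was at 14.5 on wild-type and 27.2 on CAR-deficient arrays, so levels were not compared between genotypes. The number of arrays per diet, 4 or 3, limits the precision.

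Of 45101 probe sets 64 controls were set aside, which left 45037 in wild-type mice and, with 26 blank, 45011 in CAR-deficient mice. By the platform annotation 34945 named 1 gene, 932 several, and 9160 were unnamed here, giving 18193 genes with a lead probe set. Diets and mouse numbers came from the sample titles.

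Diets were compared by limma 3.58.1 (lmFit and eBayes, all 4 diets of a genotype in 1 fit) in R 4.3.3, tested on simulated data first, with Benjamini-Hochberg adjustment over all probe sets, a threshold of 0.05 and 95% intervals. Of 100 uncompressed probe sets shifted by 1 in the simulated EtOH arrays, 88 were called with the wild-type spread and 41 with the CAR-deficient one. Of 100 with a smaller shift there were 65 and 13. The rank product test, which the study used, was run here at an FDR of 0.025 with 50 permutations, and tables and figures were made in Python 3.11.15. All member genes, their lead and uncompressed probe sets and the 5 genes most like Hsp90aa1 were named. Not every compressed member probe set or called gene of the lists was named, and some called genes entered the counts only. The members and lists were chosen with earlier results of these data known.

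Same-numbered mice were not paired in the main fits, and the mouse number entered only as a block in an alternative. A pairing was counted as borne out where every pair's deviations correlated above 0.1. This held for EA and control in wild-type mice (4 pairs, 0.157 to 0.568) and for EtOH and control in CAR-deficient mice (3 pairs, 0.288 to 0.41). The numbers come from the titles, and no label says what a shared number means. Alternatives were quantile normalization, a filter at the median level, a fit of the compared groups alone, the mouse number as a block, rank product, a lead probe set without cross-hybridising types and leaving out each array. The fit on uncompressed probe sets and the fit without 2 CAR-deficient arrays were added after seeing the data.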

Additional observations from a re-analysis of the deposited data

Results flagged for a closer look

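For Ahsa1 (1424147_at) EtOH mouse 3 of the wild type was at 9.98, far from the other 3 EtOH mice at 9.69 to 9.72. For Hsp90aa1 (1426645_at) control mouse 1 of the wild type was at 10.02, with the other 3 at 9.33 to 9.43. For the compressed Cdc37 (1416819_at) the same mouse was at 9.01497, with the others at 9.01514 to 9.01517. Of 40 groups of 4 arrays looked at, chance puts about 1 in 20 past the limit used for such a gap.

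In the interaction test the ethanol difference of Hspa1a, an inducible Hsp70 gene, was called, at 1.117 (wild type minus CAR deficient, limma adjusted p = 0.0036). It was the 1 gene called of 14 measured heat shock genes, against 2.46% of all genes in either direction. The ethanol difference was -0.26 ± 0.0845 in wild-type and -1.38 ± 0.199 in CAR-deficient mice. Genotype goes with a separate run of DFW, and the 2 cannot be told apart here. The probe sets of Hspa1a and Hspa1b may cross-hybridise.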

How the results depend on the processing

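No called member difference changed sign under any alternative run. For EtOH minus control in wild-type mice, 6 members were called; 2 with the 2 groups alone and 1 (Stip1) with a replicate block. For EA minus EtOH the 3 calls became 0 with the 2 groups alone and 0 with the replicate block. For EA minus control 1 became 2 after quantile normalization and 0 with the block. For RSV minus control 3 became 6 after quantile normalization and 5 with the median-level filter, with uncompressed probe sets only (added after seeing the data) and by rank product. For EA minus RSV 0 became 3 by rank product, and for the genotype interaction of EtOH minus control 0 became 2 after quantile normalization. The cause was not tested. Leaving out 1 array gave 3 to 6 calls for EtOH minus control, 0 to 4 for EA minus EtOH, 0 to 0 for RSV minus EtOH, 0 to 1 for EA minus control, 2 to 4 for RSV minus control and 0 to 0 for EA minus RSV in wild-type mice, 0 in every CAR-deficient comparison, 0 to 1 for the interaction of EtOH minus control and 0 for the other interactions. Of the alternatives for single genes 221 kept the call and 64 lost it. The pairing by mouse number was borne out only for EA minus control in wild-type and EtOH minus control in CAR-deficient mice, and for the other comparisons the numbers may be only names. The block changed no other count. Over all probe sets 2501 were called for EtOH minus control in the wild type, 567 with the 2 groups alone and 1514 with the block, and for EA minus EtOH 1066, 111 and 675. Quantile normalization also moved the split of higher and lower genes, from 44 and 57 to 798 and 125 for RSV minus EtOH, from 1508 and 1760 to 7658 and 2995 for EA minus control and from 2045 and 2289 to 8594 and 2512 for RSV minus control in the wild type. For EA minus control in CAR-deficient mice it went from 27 and 17 to 12 and 4, and for the interactions from 206 and 241 to 4865 and 342 (EtOH minus control) and from 17 and 15 to 7 and 10 (EA minus EtOH).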
